A study of Mus musculus with 16 samples.

Results

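Pancreatic β cells, the insulin-secreting cells of the islets, were compared between old and young mice, and the windows described here are their CpG-poor promoters. A window ran from 1 kb before to 500 bases after the annotated start of the most counted transcript of a gene. It was taken where 3 to 15 of its CpGs had 5 or more bisulfite calls in both libraries, on autosomes and without the Olfr and Vmn receptor genes. This gave 3406 windows among 21530 autosomal genes with 1 annotated position, and another 869 windows of Olfr and Vmn genes met the CpG limits and were left out. Windows with 16 to 50 such CpGs numbered 5660, windows with over 50 numbered 10572, and windows with fewer than 3 numbered 967.

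The β cells were sorted by flow cytometry from islets, and the title of the study ties age to regulatory DNA methylation and to insulin release. RNA came from mice labelled MIP-GFP/Bl6, which carry a green fluorescent protein under an insulin promoter, with 3 old libraries (15, 16 and 17 months) and 2 young libraries (4 to 6 weeks). Bisulfite and chromatin samples came from mice labelled C57Bl6, with 1 library per age, old at 16 to 18 months by label and 18 to 22 months by the design text for the bisulfite pool, and young at 4 to 6 weeks. Each library was a pool of mice, and whether the C57Bl6 mice carried the reporter, whose promoter is itself an insulin promoter, is not stated in the labels. RNA and DNA therefore came from different animals.

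DNA methylation in mammals sits mostly on the cytosine of CpG pairs, and most CpGs outside islands are methylated. Promoters rich in CpGs lie in islands that stay unmethylated whether the gene is on or off, whereas promoters poor in CpGs are methylated in most tissues and often lose the mark where their tissue-restricted gene is transcribed. The insulin genes and several other genes of the β-cell secretory programme start in such CpG-poor DNA.

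The sequences shown here are the 250 bases before the RefSeq start (build GRCm38.p6) of 8 genes on which the results turn, 5′ to 3′ on the strand of the gene, with every CpG in capitals. They are 5 genes of the β-cell secretion list, the stress-response gene Nupr1 and the genes Ppy and Ctrb1 of other pancreatic cells. For Iapp, G6pc2, Trpm5, Nupr1 and Ppy, the CpGs of the 300-base RefSeq entry fell on CpGs listed in the deposited mm9 tables with the same spacing. For Ucn3 and Ctrb1, with 1 CpG each, and for Ins1, with none, there was no spacing to compare.
Ins1: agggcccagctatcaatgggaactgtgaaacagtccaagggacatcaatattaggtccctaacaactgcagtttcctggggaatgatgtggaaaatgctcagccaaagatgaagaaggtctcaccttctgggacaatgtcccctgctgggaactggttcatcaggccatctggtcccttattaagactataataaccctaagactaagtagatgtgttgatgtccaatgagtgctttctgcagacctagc
Iapp: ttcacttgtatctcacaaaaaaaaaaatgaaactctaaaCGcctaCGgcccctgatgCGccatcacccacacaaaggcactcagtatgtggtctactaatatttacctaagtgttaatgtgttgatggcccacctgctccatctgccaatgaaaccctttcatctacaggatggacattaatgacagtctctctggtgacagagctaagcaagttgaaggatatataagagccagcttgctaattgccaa
G6pc2: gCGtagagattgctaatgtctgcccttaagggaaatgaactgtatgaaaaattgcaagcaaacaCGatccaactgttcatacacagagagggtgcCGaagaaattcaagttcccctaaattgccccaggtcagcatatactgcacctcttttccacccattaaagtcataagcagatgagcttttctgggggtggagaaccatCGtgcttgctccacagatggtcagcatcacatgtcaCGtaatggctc
Ucn3: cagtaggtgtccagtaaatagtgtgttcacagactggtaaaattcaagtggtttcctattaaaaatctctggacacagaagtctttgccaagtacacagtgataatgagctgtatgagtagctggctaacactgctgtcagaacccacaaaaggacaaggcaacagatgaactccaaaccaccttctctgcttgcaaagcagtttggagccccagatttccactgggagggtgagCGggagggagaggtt
Trpm5: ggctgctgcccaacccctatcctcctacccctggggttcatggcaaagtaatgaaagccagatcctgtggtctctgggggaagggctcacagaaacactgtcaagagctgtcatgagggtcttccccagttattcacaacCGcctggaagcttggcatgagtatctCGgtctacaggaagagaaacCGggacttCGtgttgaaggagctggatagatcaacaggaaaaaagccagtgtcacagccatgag
Nupr1: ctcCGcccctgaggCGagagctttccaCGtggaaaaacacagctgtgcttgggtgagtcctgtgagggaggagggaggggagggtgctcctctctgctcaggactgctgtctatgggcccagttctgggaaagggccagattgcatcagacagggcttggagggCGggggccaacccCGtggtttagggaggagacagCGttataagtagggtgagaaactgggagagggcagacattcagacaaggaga
Ppy: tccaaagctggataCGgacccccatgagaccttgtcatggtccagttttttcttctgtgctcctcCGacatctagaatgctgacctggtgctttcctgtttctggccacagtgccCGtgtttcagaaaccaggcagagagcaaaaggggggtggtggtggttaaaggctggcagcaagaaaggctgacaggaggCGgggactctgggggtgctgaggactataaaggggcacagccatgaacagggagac
Ctrb1: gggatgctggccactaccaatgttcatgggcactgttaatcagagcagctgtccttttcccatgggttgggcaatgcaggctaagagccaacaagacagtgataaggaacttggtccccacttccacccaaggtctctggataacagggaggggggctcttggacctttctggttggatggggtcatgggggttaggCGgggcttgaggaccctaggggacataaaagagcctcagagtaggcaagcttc
These runs lie at chr19:52264047-52264296 (plus strand) for Ins1, chr6:142298175-142298424 (plus) for Iapp, chr2:69219699-69219948 (plus) for G6pc2, chr13:3945350-3945599 (minus) for Ucn3, chr7:143094643-143094892 (minus) for Trpm5, chr7:126625471-126625720 (minus) for Nupr1, chr11:102101320-102101569 (minus) for Ppy and chr8:111691011-111691260 (minus) for Ctrb1. The Ins1 run holds no CpG at all, Ucn3 and Ctrb1 hold 1 each, Iapp holds 3, Trpm5 and Ppy hold 4 each, G6pc2 holds 5 and Nupr1 holds 6. A handful of positions thus carried every methylation call near these starts. By symbol, 2125 members had a RefSeq entry, and 1818 had exactly 1.

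Letters other than CpG were counted in the 250 bases before the start, on both strands. TATAAA, the TATA box, stood in 24.1% of the 1818 members with 1 entry, against 13.6% of all 22862 genes with 1 entry, 11.0% of windows with 16 to 50 CpGs and 4.68% of windows with over 50. Within the last 50 bases, on the strand of the gene, it stood in 10.8% of members and 3.14% of all. TAATTA, a core of homeodomain sites, stood in 7.43% of members and 5.04% of all, CACGTG (an E box) in 2.53% and 5.92%, and TGACGTCA (the cyclic AMP response element) in 0.605% and 1.61%. The last 2 contain a CpG themselves, so windows chosen for few CpGs hold fewer of them. Among the printed runs TATAAA occurs in Ppy, 31 bases before the RefSeq start, and CACGTG in Nupr1, 225 bases before it. Members had a median GC content of 46.4% in these 250 bases, against 52.0% over all genes with 1 entry.

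Across the series, 15132514 autosomal CpGs had 5 or more calls in both libraries, with mean methylation of 74.3% in the old and 74.4% in the young library and a median of 21 old and 19 young calls per CpG. RNA libraries held 23559908 to 33562822 gene counts in old cells, 6377619 in the shallower young library and 12892123 in the deeper one. The summed level of 8 β-cell markers was 329515 to 388811 CPM (gene counts scaled to the total of the library) in old libraries, against 332264 CPM in the young library with fewer counts and 274993 CPM in the deeper one. Ins1 alone was at 230866, 227253 and 283342 CPM in old and at 240530 and 220277 CPM in the shallower and deeper young libraries. The sum was thus mostly Ins1 and says little about the other markers. By edgeR's quasi-likelihood test (adjusted p under 0.05) 2 of the 8 rose and none fell, against 3.17% and 7.93% of all genes tested. Marker sums of every other cell type checked were lower in each old library than in either young one: acinar markers (5 genes) reached 61.7 to 98.9 CPM in old against 1235 and 1909 CPM in young libraries, stromal markers (5 genes) 2.20 to 5.60 against 183 and 3402 CPM, and α-cell markers (3 genes) 683 to 1454 against 1780 and 32679 CPM. Tested singly by edgeR, all markers of stromal, endothelial, duct, δ and PP cells fell, as did 4 of the 5 acinar markers. Only 1 of the 3 α-cell and 1 of 4 leukocyte markers fell, and no marker of these other cell types rose. No marker of any type was at 0 in all old libraries. In bulk RNA, fewer cells of a type and less RNA per cell cannot be told apart.

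CpG-poor promoters were mostly methylated at both ages, and the level hardly moved between the libraries. Methylation of a window is the share of methylated among all calls at its counted CpGs, and its median over members was 77.6% (quartiles 64.9 and 86.1%) in the old and 77.5% (quartiles 65.8 and 86.9%) in the young library. Over 80% methylation was reached by 1478 members in old and 1475 in young cells, and 90 members in old and 70 in young cells lay under 20%. Windows with 16 to 50 CpGs had medians of 34.2% in old and 35.2% in young cells, and windows with over 50 CpGs had 6.00% and 5.89% in old and young cells. At the edges of the rule, windows with 2, 3, 15 and 16 CpGs had medians of 75.9, 74.8, 75.9 and 76.7% in old and 78.9, 74.3, 75.9 and 75% in young cells, so no break falls at 15.

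**Figure D1:**
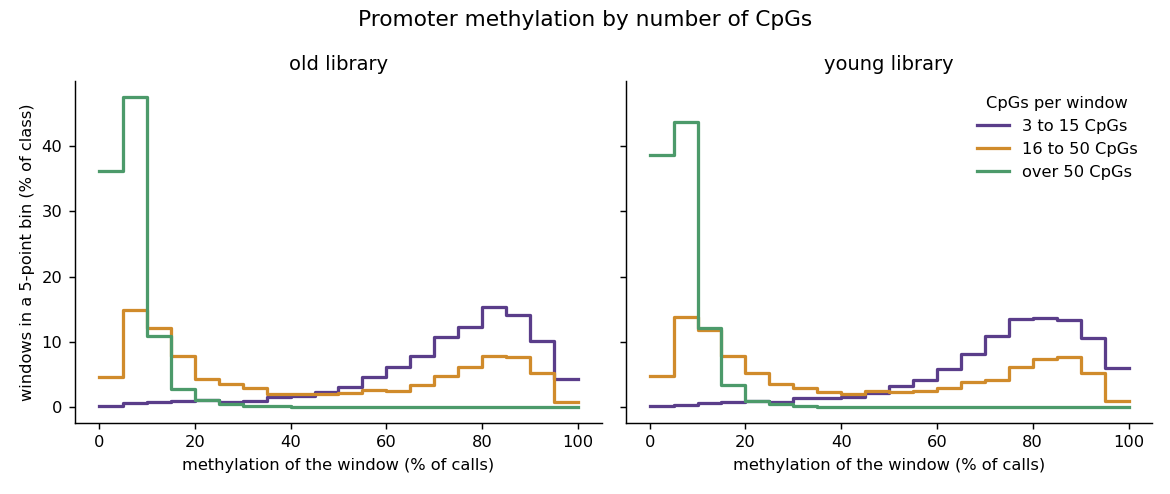
Share of windows (y axis, percent of the class) by methylation in 5-point bins (x axis, percent of calls), for the old library on the left and the young library on the right, with lines for windows of 3 to 15, 16 to 50 and over 50 CpGs. The CpG-poor windows peak near 80% at both ages, while windows of over 50 CpGs lie almost wholly under 20% and windows of 16 to 50 CpGs fall on both sides.

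A member held a median of 9 counted CpGs and 191 calls in the old and 169 calls in the young library, and 662 members (19.4%) had over 15 CpGs when those with fewer calls were added. Gene families with many CpG-poor members gave like levels. The 38 keratin-associated protein genes, which build hair, had medians of 81.4% in old and 80.7% in young cells, 35 defensin genes 78.0% and 76.5%, 51 cytochrome P450 genes 80.7% and 76.1%, 39 serpin genes 78.5% and 79.1%, and 180 microRNA genes 81.6% and 81.0%. Lower medians came from 18 Trim genes, many of them ubiquitin ligases of antiviral defence, with 55.9% in old and 68.2% in young cells, and 15 zinc finger (Zfp) genes with 65.4% and 64.9%. Of the 180 microRNA windows 43 were lower and 24 higher in old cells by Fisher's test (23.9% and 13.3%), and of the 18 Trim windows 9 and 2, against 26.5% lower and 28.5% higher over all windows tested.

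Window by window, 579 members (17.0%) were lower and 483 (14.2%) higher in the old library (two-sided Fisher's exact test on calls, Benjamini-Hochberg adjusted p under 0.05 over 20563 windows), against the 26.5% and 28.5% given for all windows. Members have fewer calls than CpG-rich windows, so these shares are not comparable in power. Stratified by CpG with the Cochran-Mantel-Haenszel test, 641 were lower and 528 higher (all windows 29.7% and 26.8%), and 465 and 399 passed both tests. With a difference of 20 points or more, 136 of the 3406 members were lower and 103 higher by Fisher's test, against 1.12% and 0.939% of all windows. Of windows with over 50 CpGs, 97.7% lay under 20% in young cells, where a fall of 20 points is not possible. Only 1 of these 10572 windows was lower and 3 were higher by 20 points or more, so these shares are not comparable either. The median difference, old minus young, was -0.70 points (95% order-statistic interval -1.02 to -0.30), and Spearman's rho between the ages was 0.735 over the 3406 windows, which share both libraries. With 1 library per age these tests compare 2 libraries, not 2 ages, and intervals cover counting error only.

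The insulin genes and their neighbours in the secretory programme were an exception to high methylation. Of 45 genes on the β-cell secretion list with an autosomal window, 10 were members, with median methylation of 21.8% in old and 35.0% in young cells, against 77.6% and 77.5% over all members. By Fisher's test 3 of the 10 were lower in old cells, none was higher, and 7 did not pass. Of all members 17.0% were lower and 14.2% higher, and of all windows 26.5% and 28.5%. The stratified test called 5 lower and 1 higher, against 18.8% and 15.5% of all members and 29.7% and 26.8% of all windows. A negative difference was found for 9 of the 10, of which Slc30a8, Ucn3 and Papss2 had a positive one, not past the test, under another coverage minimum. In RNA, 3 of the 10 rose and none fell, with a median log2 fold change (old over young) of 0.81, against 3.17% that rose and 7.93% that fell of all genes tested and a median of -0.05. The summed markers of every other cell type checked were lower in each old library, and their part in these differences was not tested. In mm9, the windows lie at chr7:149865113-149866613 for Ins2, chr6:142245945-142247445 for Iapp, chr2:69057055-69058555 for G6pc2, chr13:3944095-3945595 for Ucn3, chr15:52126108-52127608 for Slc30a8 and chr7:150280047-150281547 for Trpm5.

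Ins1, an insulin gene of the mouse, showed the widest gap of the list. Its window (mm9, chr19:52337813-52339313) had 18 methylated of 186 calls in the old library, 9.68% (exact 95% interval 5.84 to 14.9%), and 40 of 73 calls in the young one, 54.8% (42.7 to 66.5%). The difference was -45.1 points (adjusted p = 8.04e-13, Fisher's exact test), and -43.9 points stratified by CpG (adjusted p = 7.84e-11). Only 6 CpGs carry it, none within 200 bases of the start. At position 215 after the start, 1 of 30 calls was methylated in old and 15 of 27 in young cells. At positions 463 and 466, 4 and 0 of 43 calls were methylated in old cells, and 5 of 5 calls at each in young cells. Upstream, at -385, 9 of 31 calls were methylated in old and 11 of 26 in young cells. With only CpGs of 10 or more calls in both libraries the difference was -32.7 points, and within 500 bases before to 200 after the start it was -13.3 points (adjusted p = 0.506).

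Ins1 RNA, whose reads may be shared with Ins2, stood at 230866, 227253 and 283342 CPM in old libraries against 240530 CPM (shallower) and 220277 CPM (deeper) in the young libraries. The groups overlapped, and the log2 fold change was 0.27 (SE 0.27, adjusted p = 0.561, edgeR quasi-likelihood test).

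Ins2, the other insulin gene, had 45 methylated of 189 calls in old cells, 23.8% (17.9 to 30.5%), and 98 of 284 in young cells, 34.5% (29.0 to 40.4%). This is -10.7 points (adjusted p = 0.0281), or -9.33 stratified by CpG (adjusted p = 0.0462). The gap came from the ends of the window: at -829 and -804, 5 of 19 and 4 of 17 calls were methylated in old cells against 18 of 36 and 25 of 38 in young ones, and within 500 bases before to 200 after the start the difference was 0.03 points. Ins2 RNA was at 73073, 76847 and 88912 CPM in old libraries and at 80712 and 45156 CPM in the shallower and deeper young ones, which overlap (log2 fold change 0.50, SE 0.32, adjusted p = 0.339).

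Iapp, which encodes the amyloid peptide released with insulin, and G6pc2, the islet glucose-6-phosphatase subunit, were low at both ages. G6pc2 had 9 of 124 calls methylated in old cells, 7.26% (3.37 to 13.3%), and 40 of 158 in young cells, 25.3% (18.7 to 32.8%), a difference of -18.1 points (adjusted p = 0.000187) and -15.3 stratified by CpG (adjusted p = 0.00224). In the printed run this sits on the 2 CpGs nearest the start: 47 bases before the RefSeq start 0 of 19 calls were methylated in old and 16 of 45 in young cells, and 11 bases before it 2 of 29 in old and 16 of 54 in young cells. At the CpGs 186 and 155 bases before it, 0 of 16 and 0 of 20 calls were methylated in old and 0 of 9 and 0 of 14 in young cells, which allows a share of up to 15.0% in the deepest of these. Averaged over its 7 CpGs, each with the same weight, the difference was -3.80 points. G6pc2 RNA was at 4894, 6030 and 2693 CPM in old libraries and at 2567 and 836 CPM in the shallower and deeper young ones, and its log2 fold change was 1.55 (SE 0.50, adjusted p = 0.0822).

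Iapp had 23 of 116 calls methylated in old cells, 19.8% (13.0 to 28.3%), and 33 of 103 in young cells, 32.0% (23.2 to 42.0%), which did not pass (adjusted p = 0.0763, and 0.0798 stratified by CpG). At CpGs 211, 205 and 193 bases before the start, capitals in the printed run, 3 of 9, 3 of 10 and 3 of 8 calls were methylated in old and 0 of 6 at each in young cells. After the start the order turned: at 156 and 160, 0 of 18 and 0 of 15 calls were methylated in old cells against 4 of 23 and 7 of 17 in young cells. Iapp RNA was at 19167, 20139 and 12196 CPM in old libraries and at 7430 and 7917 CPM in young ones, without overlap, and its log2 fold change was 1.31, a rise (SE 0.27, adjusted p = 0.0245, edgeR). With only CpGs of 10 or more calls the methylation difference was -21.8 points and passed (adjusted p = 0.00165). Without old library 1 or 2 the RNA call was lost (adjusted p = 0.12 and 0.102).

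Ucn3, a peptide of mature β cells, had 29.3% methylation in old and 35.5% in young cells (adjusted p = 0.442), and 7.90 points more in old cells over CpGs of 10 or more calls, which did not pass. It had a sharp inner boundary at both ages: 575 and 468 bases before the start 18 of 19 and 22 of 27 calls were methylated in old and 18 of 18 and 12 of 13 in young cells, whereas 66 bases after the start the counts were 0 of 23 in old and 0 of 7 in young cells. Slc30a8, the zinc transporter of insulin granules, had 37.2% in old and 40.6% in young cells over only 3 CpGs (adjusted p = 0.867), and 7.78 points more in old cells with a minimum of 3 calls (adjusted p = 0.619). Its RNA was at 811, 774 and 524 CPM in old libraries and 300.3 and 329 CPM in young ones, without overlap, and rose by 1.30 (SE 0.24, adjusted p = 0.0191), a call lost without old library 1 or 2 (adjusted p = 0.0868 and 0.0728). Gipr, an incretin receptor, had 9.94% in old and 14.0% in young cells. It missed Fisher's threshold (adjusted p = 0.182) and was lower in old cells stratified by CpG, with a difference of -6.46 points (adjusted p = 0.00587).

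**Figure D2:**
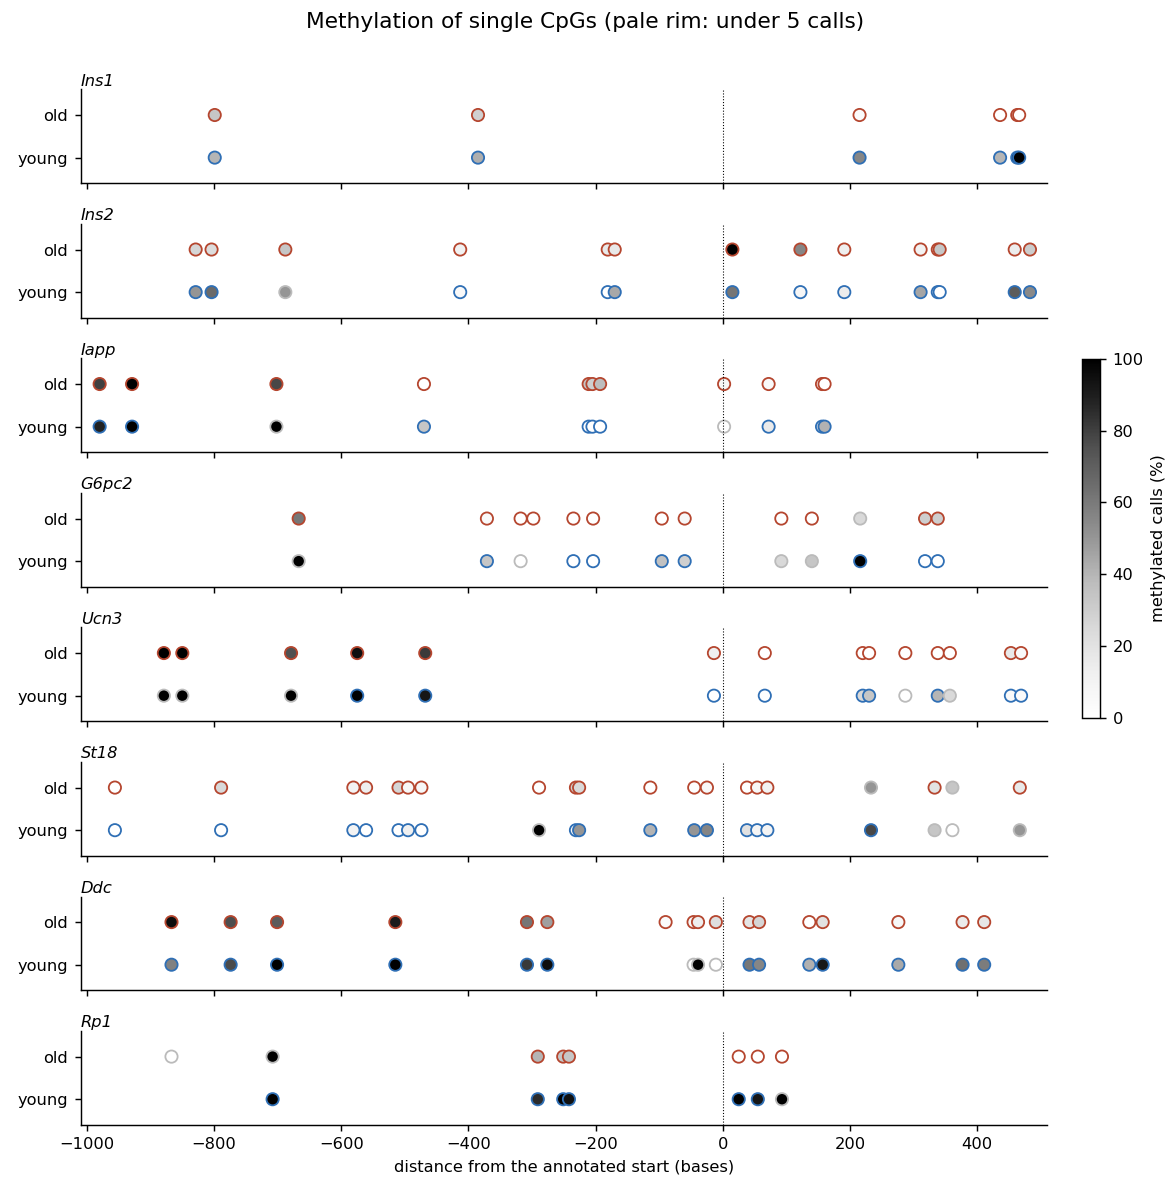
Methylation of single CpGs (grey scale, percent of calls) by distance from the annotated start (x axis, bases) for 8 CpG-poor promoters, with the old library above the young one in each panel; red rims mark old, blue rims young, pale rims CpGs with under 5 calls. Ins1 has no CpG within 200 bases of its start, Ucn3 is dark over 400 bases upstream and pale elsewhere at both ages, and Rp1 has pale CpGs in old and dark ones in young cells near its start.

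Trpm5, a calcium-activated cation channel of β cells, and Papss2, which makes the sulfate donor of sulfotransferases, carried high methylation. Trpm5 had 68.8% in old and 66.6% in young cells (adjusted p = 0.631), and stratified by CpG it was 8.74 points higher in old cells (adjusted p = 0.00406), as it was within 500 bases before to 200 after the start, by 12.2 points (adjusted p = 0.0242). In its printed run the CpG 110 bases before the start was methylated in 1 of 28 calls in old and 0 of 29 in young cells, while the CpG 56 bases before it was methylated in 36 of 39 and 46 of 53 calls. Trpm5 RNA was at 167, 178 and 168 CPM in old libraries and at 64.8 and 82.8 CPM in young ones, without overlap, and rose by 1.37 (SE 0.24, adjusted p = 0.0163). That call was lost without any 1 old library (adjusted p = 0.0592 to 0.0684). Papss2 had 83.2% in old and 89.1% in young cells at 1058, 943 and 710 CPM in old and 623 and 635 CPM in young libraries, and another annotated start of the gene, over 1 kb away, lay in a young H3K27ac region.

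2 of 34 β-cell transcription factor genes with a window were members. Both were lower in old cells by Fisher's test, against 17.0% of all members and 26.5% of all windows, and 2 genes are too few for a share. St18, a zinc finger factor of endocrine cells, had 9.09% (6.26 to 12.7%) in old and 23.5% (19.0 to 28.5%) in young cells (adjusted p = 1.57e-06, and 1.33e-06 stratified by CpG). At 114, 45 and 25 bases before its start, 0 of 21, 1 of 48 and 3 of 53 calls were methylated in old cells, against 20 of 49, 14 of 28 and 14 of 25 in young cells. St18 RNA was at 252, 168 and 213 CPM in old libraries and at 191 and 197 CPM in young ones (log2 fold change 0.28, adjusted p = 0.496). Pax4, which sets the β-cell fate in the embryo, had 65.0% in old and 100% of 61 calls in young cells (adjusted p = 1.57e-08), and its RNA was seen only in 1 young library at 39.4 CPM and in 1 old library at 0.0750 CPM.

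**Figure D3:**
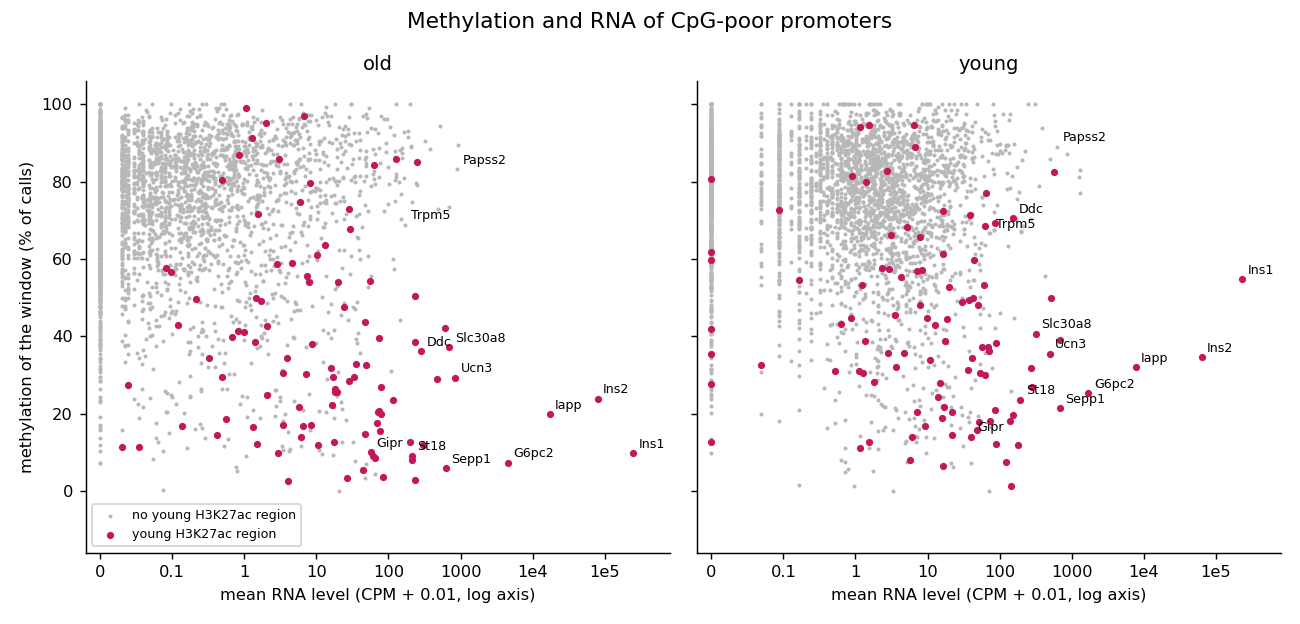
Methylation of each of the 3406 CpG-poor promoters (y axis, percent of calls) against the mean RNA level of its gene (x axis, CPM plus 0.01 on a log axis), old on the left and young on the right, with windows that overlap a young H3K27ac region in red. Most windows lie above 60% both with 0 counts and at 100 CPM or more, but Ins1, Ins2 and Iapp, far to the right, lie below 60%. The red points with several β-cell genes fill the low right part, where Ins1 lies at 9.68% in old and 54.8% in young cells.

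Over all members, methylation barely followed RNA. Spearman's rho between methylation and mean CPM was -0.03 in old and -0.10 in young cells over the 3406 windows, and 0.01 and -0.06 with CPM per kilobase of transcript over the 1863 members with a length. The windows share 1 bisulfite library and the RNA libraries of their age, and CPM is not corrected for transcript length. Lengths were derived from counts and the deposited signal and needed 20 or more counts, so members with little RNA drop out. Of the 40 histone transcripts that set the scale, 65.0% came within 5% of their span on the genome. The per-kilobase values thus differ in members as well as in scale. Windows with 16 to 50 CpGs had rho of -0.49 in old and -0.43 in young cells, and windows with over 50 CpGs -0.27 and -0.18. Per kilobase these were -0.40 and -0.24, and -0.20 and -0.09. In CpG-poor promoters the low tail grew with CPM: the share under 20% methylation was 0.908% among 1101 members with 0 counts in old cells, 1.49% under 1 CPM, 5.42% from 1 to 10 CPM, 10.9% from 10 to 100 CPM and 15.3% of 59 members at 100 CPM or more. In young cells the same shares were 0.448, 1.06, 2.47, 4.91 and 8.33%. The share over 80% was 42.9% with 0 counts and 44.1% at 100 CPM or more in old cells, and 45.4% and 43.3% in young ones. Per kilobase of transcript it was lower at the top: in old cells it was 41.7% under 1 CPM per kilobase and 21.7% of 23 members at 100 or more, with medians of 76.6% and 42.2%, and in young cells 45.0% and 36.7% (30 members), with medians of 77.9% and 62.2%.

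Highly transcribed members fell into separate sets by H3K27ac, a histone mark of active promoters and enhancers mapped here in young cells only. At 100 CPM or more over the 5 libraries, 21 members overlapped a young H3K27ac region and had a median methylation of 19.8% in old and 32.0% in young cells, whereas the 38 without it had 86.2% and 84.7%. Of these 38, 37 lay over 50% in old cells. They include Golgb1 (89.4% in old and 85.9% in young cells), which encodes the Golgi protein giantin, Spnb2 (94.5% and 87.1%), a spectrin gene, and the noncoding imprinted gene Meg3 (73.4% and 83.0%). Another annotated start over 1 kb away existed for 12 of the 38, and for 11 of these it lay in a young H3K27ac region, as for Spnb2 and Meg3. A further 3 of the 38 genes mark other pancreatic cells, Ppy, Ctrb1 and Col3a1, with most of their RNA in the young libraries. Whether the annotated start of the others was the start in use was not tested.

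In all, 2.99% of the 3406 members (95% exact interval 2.45 to 3.62%) overlapped a young H3K27ac region, against 36.3% of all windows, and lower methylation in the old library was more frequent among them than among the rest. Their median methylation was 29.5% in old and 37.8% in young cells, a median difference of -4.62 points (interval -7.66 to -2.44), or -5.68 stratified by CpG. Of these marked members 42 were lower (41.2%) and 6 higher (5.88%) in old cells by Fisher's test, and 43 and 9 stratified by CpG, with 34 and 4 by both. The 3304 members without the mark had medians of 78.1% and 77.9% in old and young cells and a median difference of -0.63 points, with 537 lower and 477 higher. Of marked windows with 16 to 50 CpGs, 32.1% were lower and 24.7% higher (median difference -0.56 points), and 36.5% and 21.6% stratified by CpG. Of marked windows with over 50 CpGs, 34.9% were lower and 35.0% higher, and 39.0% and 32.2% stratified by CpG. No test between these sets was made, since windows are not replicates. The summed RNA markers of every other cell type checked were lower in each old library, and the part of such cells in these methylation differences was not tested. The mark was taken from young cells, so windows that gained it with age are not among them.

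**Figure D4:**
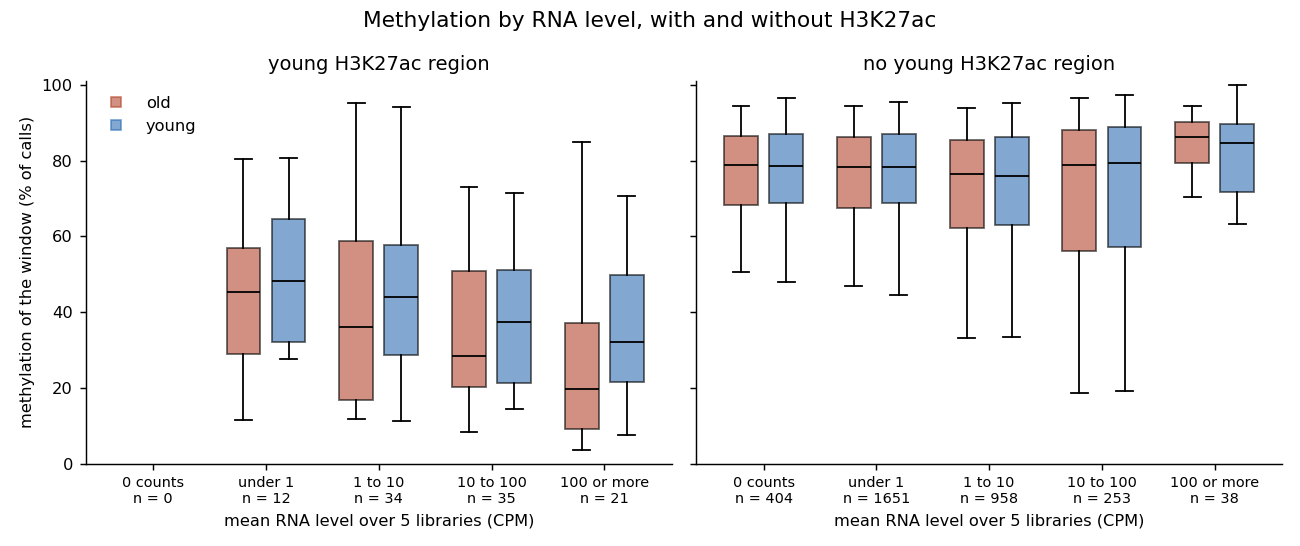
Methylation (y axis, percent of calls) by mean RNA level over 5 libraries (x axis, CPM), for members with a young H3K27ac region on the left and without on the right, old boxes left of young boxes; boxes span the quartiles, lines mark medians and whiskers the 5th and 95th percentiles. With the region, medians were lower in old than in young cells in each of the 4 filled RNA classes, and without it medians lay between 76.6 and 86.2% in old and between 76.0 and 84.7% in young cells.

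Other marks were spread differently. H3K4me1, a mark of enhancers and promoter flanks, overlapped 3.02% of members in old and 6.46% in young cells (all windows 24.2% and 40.5%). Members with young H3K4me1 had medians of 47.6% in old and 53.3% in young cells. H3K27me3, the mark of Polycomb repression, overlapped 43.2% of members in old and 30.1% in young cells, near the 41.0% and 28.6% of all windows. The 810 members with it at both ages had medians of 73.6% in old and 74.6% in young cells, and the 1721 with it at neither age 80.1% and 79.1%. RNA fell for 68 of 256 tested members (26.6%) with H3K27me3 at both ages, for 33 of 250 (13.2%) with it in old cells only, for 3 of 58 (5.17%) with it in young cells only and for 66 of 801 (8.24%) with it at neither, against 7.93% of all genes tested.

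Within the window, methylation was lowest near the start. CpGs within 200 bases of the start averaged 46.4% in old and 49.8% in young cells in members at 100 CPM or more (167 CpGs), against 79.4% and 79.5% over 500 bases upstream (136 CpGs). In the rest of the window, 200 to 500 bases from the start on either side, members at 100 CPM or more averaged 56.1% in old and 60.1% in young cells (232 CpGs). In members under 1 CPM the averages near the start were 73.3% in old and 74.1% in young cells (6454 CpGs). They were 76.6% in old and 77.6% in young cells in the rest of the window, and 78.3% at both ages over 500 bases upstream. The dip near the start was thus deepest in the most transcribed members, and in them methylation was also low in the rest of the window. Their CpGs over 500 bases upstream averaged close to those of members under 1 CPM.

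RNA of CpG-poor genes was more often lower than higher in old cells. Of 1365 members tested, 23 rose (1.68%) and 170 fell (12.5%), and 1172 did not pass (edgeR's quasi-likelihood test on counts, adjusted p under 0.05), against 3.17% and 7.93% of all 15544 genes tested. Their median log2 fold change was -1.34. It was -0.38 without the shallower and -2.53 without the deeper young library. The number that rose was 3, 5 and 5 without old library 1, 2 and 3, 70 without the shallower and 104 without the deeper young library. The number that fell was 37, 54 and 32 without old library 1, 2 and 3, 201 without the shallower and 632 without the deeper young library. Acinar genes fell together: of 18 member genes of digestive enzymes, 17 were tested, 12 fell and none rose, at a median methylation of 77.6% in old and 77.1% in young cells. All 4 stellate and fibroblast members, 2 of 3 endothelial, 2 of 3 duct and 4 of 13 tested macrophage and lymphocyte members fell as well. Those cell types' summed markers were lower in every old library, as given above, and their part in the falls was not tested. Ctrb1 is among the acinar markers, and Col3a1 and Dcn are among the stromal ones, so those sums include members counted here. A further 2041 members were too low to test, and 404 had no count in any library.

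Differences in methylation and in RNA were at most weakly related over the members. Among the 579 members lower in old cells, 255 were tested, of which 6 rose and 21 fell; among the 483 higher ones, 203 were tested, of which 2 rose and 20 fell; and among the 2344 not called, 907 were tested, of which 15 rose and 129 fell. Median log2 fold changes were -0.67, -1.78 and -1.41 in these sets, and Spearman's rho between both differences was -0.07 over 1365 windows. The log2 fold change was above 0 for 100 of the 255, 55 of the 203 and 275 of the 907. The 6 members lower in methylation whose RNA rose were 2.35% of the 255 tested, against 1.68% of all members and 3.17% of all genes tested. Of these 6, 4 have gene names, Nupr1, Fbxw15, P2ry6 and Tbc1d14.

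Nupr1, a transcriptional regulator induced by stress, had 60.1% methylation (54.7 to 65.2%) in old and 73.7% (68.8 to 78.2%) in young cells (adjusted p = 0.000375), and -6.99 points stratified by CpG (adjusted p = 0.0416). Within 500 bases before to 200 after the start the Nupr1 difference did not pass (-10.4 points, adjusted p = 0.104). Its RNA was at 88.5, 133 and 122 CPM in old libraries and at 21.0 and 19.3 CPM in young ones, without overlap, and rose by 2.67 (SE 0.32, adjusted p = 0.00543), a call kept when any 1 library was left out. At the printed CpGs 86, 73 and 52 bases before the start, 20 of 39, 12 of 46 and 21 of 35 calls were methylated in old cells and 22 of 35, 8 of 34 and 14 of 27 in young cells. Wider gaps lay 356 and 364 bases after the start, where 12 of 16 and 9 of 15 calls were methylated in old cells and 25 of 25 at each in young cells. P2ry6, a receptor for uridine nucleotides, had 72.4% in old and 79.4% in young cells (adjusted p = 0.0476), and its RNA rose by 1.83 (SE 0.39, adjusted p = 0.0271). The methylation call of P2ry6 was lost with a minimum of 3 calls (adjusted p = 0.165), and within 500 bases before to 200 after the start the difference was 0.918 points (adjusted p = 1). Tbc1d14, a regulator of autophagy, had 60.7% and 72.5% in old and young cells and rose by 1.58, and Fbxw15, an F-box gene, had 71.6% and 90.9% and rose by 3.40. Unlike that of Nupr1, the RNA calls of P2ry6 and Tbc1d14 were lost without any 1 of the old libraries (adjusted p = 0.0728 to 0.127 and 0.0804 to 0.148), and that of Fbxw15 without old library 1 or 3 (adjusted p = 0.119 and 0.094). The methylation call of Tbc1d14 was lost with a minimum of 10 calls (adjusted p = 0.0933), and another of its annotated starts, over 1 kb away, lay in a young H3K27ac region.

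The opposite pairing, more methylation and less RNA in old cells, held 20 members. RNA fell for 9.85% of the 203 tested members higher in methylation and 8.24% of the 255 lower ones. It fell for 12.5% of all members tested and 7.93% of all genes tested. Among these 20 are markers of PP cells and of acinar cells. The summed markers of both types were lower in every old library. The only PP-cell marker was Ppy itself, and Ctrb1 is among the 5 acinar markers, so these sums repeat values given here. The part of those cells in these differences was not tested. Ppy, the hormone of PP cells, had 83.8% methylation in old and 77.0% in young cells (adjusted p = 0.0324), and 56 bases before its start 22 of 22 calls were methylated in old against 25 of 41 in young cells. Its RNA was at 50.7, 157 and 89.9 CPM in old libraries and at 920 and 1695 CPM in young ones, without overlap, and fell by 3.56 (SE 0.47, adjusted p = 0.00672). Ctrb1, the acinar enzyme chymotrypsinogen B, had 93.6% in old and 81.2% in young cells (adjusted p = 0.0462, but 0.131 stratified by CpG and 0.117 with a minimum of 10 calls), and its RNA was at 85.9, 56.4 and 53.7 CPM in old and 999.7 and 1521 CPM in young libraries, a fall of log2 -4.12 (SE 0.30, adjusted p = 0.00304). Rnase1, the pancreatic ribonuclease, had 96.7% and 87.3% in old and young cells, and its RNA fell by 4.96 (SE 0.48, adjusted p = 0.00384). Hk1, a hexokinase that mature β cells keep low, had 67.5% in old and 49.1% in young cells (adjusted p = 0.00211), but 0.463 within 500 bases before to 200 after the start, where the difference was 8.21 points. Hk1 was at 0.150, 0.179 and 0.679 CPM in old libraries and 38.7 and 13.3 CPM in young ones, and fell by 6.08 (SE 0.97, adjusted p = 0.0118), a call lost without old library 1 (adjusted p = 0.0522). Another annotated start of Hk1 lay over 1 kb away. Cmah, the sialic acid hydroxylase, had 80.5% in old and 70.8% in young cells (adjusted p = 0.00421), but 0.777 within 500 bases before to 200 after the start, where the difference was 2.79 points. It had no count in old libraries, and its RNA was at least 390-fold lower than in young ones, set against 3 counts over the group. As for Hk1, another annotated start of Cmah lay over 1 kb away.

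**Figure D5:**
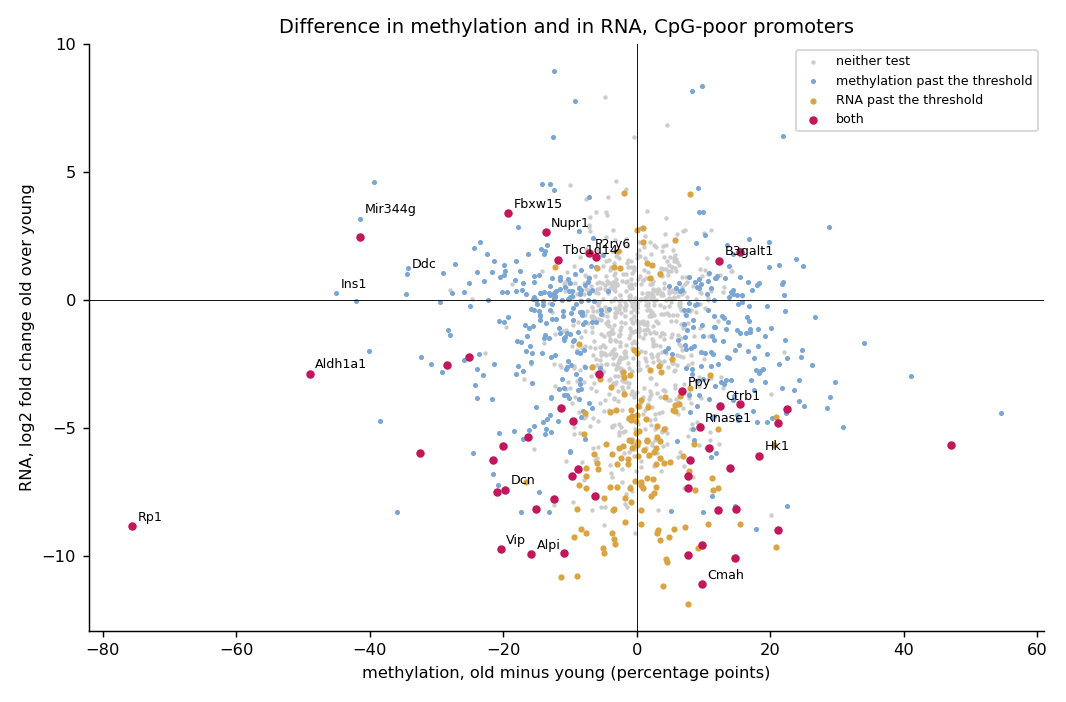
RNA log2 fold change old over young (y axis) against the methylation difference old minus young (x axis, percentage points) for the 1365 CpG-poor promoters tested in both, coloured by which test passed. Points past both thresholds lie on either side of 0 in methylation and mostly below 0 in RNA, with 21 lower and 20 higher in methylation among those that fell.

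The widest gaps fell mostly outside genes of β cells. Rp1, a photoreceptor microtubule protein (window at chr1:4349895-4351395), had 15 of 79 calls methylated in old cells, 19.0% (11.0 to 29.4%), and 70 of 74 in young cells, 94.6% (86.7 to 98.5%), a difference of -75.6 points (adjusted p = 1.02e-21), or -73.6 stratified by CpG. At 25 and 55 bases after its start 0 of 21 and 0 of 16 calls were methylated in old and 13 of 13 and 12 of 13 in young cells. Rp1 RNA had no count in old libraries and was at 3.45 and 2.56 CPM in young ones, at least 79.7-fold lower in old cells against 3 counts over the group (adjusted p = 0.0406). That call was lost without any 1 old library or without the shallower young one (adjusted p = 0.0567 to 0.0988), and the gene has another annotated start over 1 kb away. Aldh1a1 (chr19:20675472-20676972), a retinaldehyde dehydrogenase, had 19.3% in old and 68.2% in young cells (adjusted p = 1.20e-15), and its RNA fell as well, with 3.60, 2.47 and 1.99 CPM in old libraries and 17.6 and 26.3 CPM in young ones (log2 fold change -2.88, SE 0.59, adjusted p = 0.0245), a call lost without any 1 old library (adjusted p = 0.0844 to 0.0925).

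Ddc (chr11:11789911-11791411), which makes dopamine and serotonin, had 36.1% (30.4 to 42.1%) in old and 70.6% (64.5 to 76.2%) in young cells (adjusted p = 2.30e-14, and 1.64e-11 stratified by CpG). From 42 to 411 bases after its start, 7 CpGs had 0 to 8 methylated of 20 to 30 calls in old and 5 to 16 of 12 to 27 calls in young cells. Its RNA was at 335, 336 and 189 CPM in old libraries and at 216 and 92.3 CPM in young ones, which overlap (log2 fold change 1.03, SE 0.40, adjusted p = 0.128). Another annotated start of Ddc lay over 1 kb away. The microRNA gene Mir344g had 11.8% in old and 53.3% in young cells (adjusted p = 2.14e-08), in a window shared with a noncoding transcript, and Sepp1, which encodes the selenium carrier selenoprotein P, had 5.88% and 21.5% (adjusted p = 1.76e-08). Within 500 bases before to 200 after the start, Sepp1 differed by 3.07 points in the other direction (adjusted p = 0.0884), so its gap lay at the ends of the window.

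The 10 widest rises among windows with 50 or more calls in each library lay in genes with little or no RNA, at most 5.51 CPM on average in old and 9.33 CPM in young cells. Ugt2b1, a liver glucuronosyltransferase, had 87.7% in old and 42.7% in young cells (adjusted p = 1.11e-08), the muscle microRNA gene Mir206 65.7% and 27.5% (adjusted p = 6.98e-12), the sensory receptor gene Mrgprb8 81.7% and 43.6% (adjusted p = 7.27e-07) and the cytokine gene Il24 100% and 63.6% (adjusted p = 1.59e-06). Cyp7a1, the rate-limiting enzyme of bile acid synthesis in liver, had 91.7% and 60.8% in old and young cells (adjusted p = 4.64e-05). Within 500 bases before to 200 after the start Mir206 differed by 1.13 points (adjusted p = 1). Mir206, Mrgprb8 and Il24 had no count in any RNA library. Most Ugt2b1 and Cyp7a1 RNA came from the shallower young library, at 18.7 and 14.1 CPM.

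Genes of other pancreatic and blood cells were methylated like the rest of the class. The 17 macrophage and lymphocyte members had medians of 76.9% in old and 75.2% in young cells, with 2 lower and 1 higher by Fisher's test, and the 18 acinar members had 1 lower and 2 higher, against 26.5% and 28.5% of all windows. The 4 stellate and fibroblast members had 70.3% and 70.7%, with Dcn lower in old cells. The 3 duct and 3 endothelial members had 72.8% and 78.2% in old and 76.1% and 65.9% in young cells, and none of these 6 was called. Of the 4 members that mark other islet cells, with 85.4% and 82.8%, 3 were higher in old cells, Ppy, Gast and Ttr, and only Ppy stayed so when stratified by CpG. Hk1 and Cmah, both of a list of immature and disallowed genes, were higher in old cells and had RNA that fell.

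Dcn, which encodes the matrix proteoglycan decorin of fibroblasts, had low methylation at 6.15% of 65 calls in old and 25.8% of 89 calls in young cells (adjusted p = 0.00315). That call was lost with a minimum of 10 calls (-0.89 points, adjusted p = 1) and of 3 calls (-10.5 points, adjusted p = 0.108). Its RNA was at 0.600, 0.119 and 1.53 CPM in old libraries and at 24.9 and 260.3 CPM in the shallower and deeper young ones, and fell by 7.42 (SE 1.20, adjusted p = 0.0125), a call lost without old library 1 (adjusted p = 0.057). Vip, a neuropeptide gene, had 24.3% in old and 44.7% in young cells (adjusted p = 0.000166, but 0.149 stratified by CpG), and its RNA was at 0.337, 0 and 0.170 CPM in old libraries and 5.64 and 309.8 CPM in young ones. Vip fell by 9.74 (SE 1.67, adjusted p = 0.0151), a call that did not hold when old library 1, old library 3 or the deeper young one was removed (adjusted p = 0.0538 to 0.0761). Dcn is one of the stromal genes whose summed markers were lower in old libraries, and the part of such cells in its difference was not tested. Dcn also has another annotated start over 1 kb away.

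Several of the strongest RNA changes came without a called methylation difference. Gbp11, an interferon-induced guanylate-binding gene, had 85.9% methylation in old and 77.9% in young cells (adjusted p = 0.323) and stood at 39.1, 40.1 and 61.9 CPM in old libraries and at 1.72 and 4.03 CPM in young ones, a rise of log2 4.16 (SE 0.56, adjusted p = 0.00697). Slc4a10, a bicarbonate transporter gene, had 23.0% and 24.8% in old and young cells and rose by 4.19 (adjusted p = 0.0319, 0.0878 to 0.109 without any 1 old library). Srp54c, a signal recognition particle gene, had 0 methylated of 114 calls in old and 0 of 274 in young cells and rose by 2.74 (adjusted p = 0.0247, 0.074 to 0.112 without any 1 old library). Srp54c has close paralogs, so its counts are uncertain.

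On the falling side, Clca3, a gene of mucus-secreting epithelia, had 92.0% in old and 84.3% in young cells (adjusted p = 0.111), and was higher in old cells over CpGs of 10 or more calls, by 12.8 points (adjusted p = 0.0145), and within 500 bases before to 200 after the start, by 17.6 points (adjusted p = 0.00192). It had no count in old libraries and 42.3 and 7.21 CPM in young ones, at least 526-fold lower against 3 counts over the group (adjusted p = 0.0109). Cnn1, a smooth muscle calponin, had 23.9% and 27.6% in old and young cells and fell by 9.10 (adjusted p = 0.00779), and Reg3g, an antibacterial lectin, had 33.3% and 38.2% and fell by 9.88 (adjusted p = 0.00672). Both were low in methylation in cells where their RNA was nearly absent, with means of 0.0199 and 0.0125 CPM in old libraries.

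Several differences rested on where in the window calls fell. Ttr, the thyroid hormone carrier transthyretin of islet cells, had 50.4% in old and 39.0% in young cells (adjusted p = 0.0285), but -3.62 points stratified by CpG. Mtrnr2l had 20.5% in old and 45.5% in young cells (adjusted p = 1.35e-05, but 0.242 stratified by CpG). B3galt1, a galactosyltransferase gene whose RNA rose by 1.55, had 81.4% in old and 69.0% in young cells (adjusted p = 0.0186, but 0.335 stratified by CpG), and its RNA call was lost without any 1 old library (adjusted p = 0.090 to 0.173). Lce1c and Sprr4, of the cornified envelope of skin, had 60.9% and 85.5% in old and 31.5% and 55.4% in young cells. Mlana, a melanosome gene, had 43.0% in old and 73.6% in young cells and turned sign within 500 bases before to 200 after the start, as did Lce1c and Sprr4.

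Windows with gaps that held under both tests include Zfand6, a zinc finger stress gene, with 47.7% in old and 82.3% in young cells (adjusted p = 6.30e-06). Its RNA was at 38.9, 40.8 and 18.5 CPM in old libraries and at 35.1 and 25.1 CPM in young ones, which overlap (adjusted p = 0.725). Myot, a muscle sarcomere gene, had 36.4% and 67.3% with no RNA count in any library, and Trim40 had 52.4% and 83.3%.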

How the data were processed

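RNA, histone marks and CpG methylation of sorted β cells were read from the deposited tables. Per the submitters' processing notes, the build was mm9 and the tools were Bowtie 0.12.7, HOMER, STAR, CASAVA 1.8.2 and edgeR, with no role given for any. The authors deposited read counts per RefSeq transcript (per the file headers), and a table described as FPKM, whose deposited signal has 2 identical columns and served only for transcript positions and, with the counts, for lengths. The CpG tables hold a deposited fraction and a count of calls per CpG, both strands merged, and their product was within 1.9e-08 of a whole number. The labels state no filter, conversion rate or use of strand. H3K4me1 and H3K27ac regions were called with HOMER on 1 library against 1 input, per the file headers, and the deposited scores were not used. The H3K27me3 lists carry no header that names a caller.

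Methylated and all calls were summed over the CpGs of a window with 5 or more calls in both libraries (Python 3.11.15, SciPy 1.17.1) and compared by Fisher's exact test. Calls on 1 fragment are not independent, and on simulated calls the pooled test also called windows whose CpGs differ in level and are covered unevenly in the libraries, which the Cochran-Mantel-Haenszel test rarely did, so both are given. RNA was tested per gene, on its most counted transcript, with edgeR 4.0.16 (TMM, filterByExpr, quasi-likelihood, R 4.3.3), with DESeq2 1.42.0 as an alternative. The young columns carry no replicate number and are called shallower and deeper, and p-values measure the spread between these pooled libraries. A window overlapped a region by 1 base or more. The members, the gene lists and the motifs were chosen with earlier results of these data known. Named genes are up to 4 members per list with the most calls, secretion-list members at 100 or more CPM, the 10 with the highest CPM, the 10 largest rises and falls of methylation (50 or more calls in each library) and of RNA (5 or more CPM, no overlap), and up to 6 per combination of both calls; clone names were counted, not named. Sequences are RefSeq's.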

Additional observations from a re-analysis of the deposited data

How the results depend on the processing

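Among the values of the comparisons, 157 of 201 recomputed under an alternative stayed within their limits and 44 moved. Only the rho of methylation with RNA in old cells, close to 0 throughout, changed sign. For windows with over 50 CpGs, the median level in old cells was 5.75, 6.07, 7.72, 4.93 and 6.39% with a coverage minimum of 10 calls, with one of 3 calls, as a mean over CpGs, within 500 bases before to 200 after the start, and without CpGs of over 100 calls; in young cells it was 5.69, 8.44, 5.00 and 6.43% under these apart from the minimum of 3 calls, which moved it less. For windows with 16 to 50 CpGs the mean over CpGs and the narrow window gave 37.7 and 29.3% in old and 38.9 and 31.5% in young cells. The level of members in young cells was 78.1% as a mean over CpGs, and the narrow window gave a rho with RNA of -0.13 in young cells and 10 higher members with H3K27ac.

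A difference of 20 points or more left 136 lower and 103 higher members, and 8 and 1 with H3K27ac. With 3 to 10 CpGs, 323 were lower and 263 higher, 18 lower with H3K27ac, and rho in old cells was 0.0192. Per kilobase of transcript, rho was 0.00588 in old and -0.0568 in young cells. RNA rose and fell for 39 and 268 members without the filter on low counts and for 64 and 477 by DESeq2. With 1 RNA library left out, 3 to 104 rose and 32 to 632 fell. Counted only over 50% of a window, overlap was 1.61% for young H3K27ac, 0 for H3K4me1 at either age, and 40.8 and 28.3% for old and young H3K27me3. The cause of these shifts was not tested, beyond the smaller number of windows, CpGs or libraries by construction. Limiting members to those with at most 15 CpGs listed at any depth, to genes without another start, or to genes other than microRNA and small nucleolar RNA genes, all chosen after seeing the data, moved no such value.

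Of called differences, signs turned for B3galt1 (-2.32 points with a coverage minimum of 10 calls), for Ins2 (0.033), Lce1c (-5.15), Mlana (10.4), Mtrnr2l (14.2), P2ry6 (0.918), Sepp1 (3.07), Sprr4 (-10.1) and Ttr (-6.67) in the narrow window, for Mtrnr2l (4.38) and Ttr (-7.78) as a mean over CpGs, for Mtrnr2l (6.18) without CpGs of over 100 calls, and for Ttr (-3.62) stratified by CpG. Among differences that had not passed, that of Slc30a8 was 7.78 points with a coverage minimum of 3 calls. RLE normalization factors within edgeR moved the median log2 fold change of all genes to -0.17 and of members to -1.48. With DESeq2 these medians were -0.52 and -3.22. No paired analysis was possible because the young columns carry no replicate number. One bisulfite library per age gives no spread between animals, and 3 CpGs with 5 calls each can hold as few as 15 calls.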
